A study of Mus musculus with 1920 samples.

Results

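Reads of 8 genes were followed in single Lgr5high intestinal stem cells (ISCs) of young and aged mice: Tert, Bmi1, Hopx and Mex3a, which are used to mark reserve or slowly dividing crypt cells, and Terf1, Terf2, Pot1a and Dkc1, which act with Tert at telomeres. They were chosen by name and are 8 of the 55471 genes in the raw count table. They were measured in the 1836 of 1920 cells that had at least 1000 detected genes, and Tert, Bmi1, Hopx and Mex3a were set against cell cycle genes and against Lgr5. The mice carried the Lgr5tm1(cre/ERT2)Cle allele in all groups, a knock-in that drives EGFP and creERT2 from the Lgr5 gene, so that cells were sorted by their EGFP from crypts of the small intestine. Single cells came from 3 young mice (160, 370 and 376 kept cells) and 4 aged mice (189, 186, 189 and 366 kept cells). The sources used here do not give their ages in weeks. The kept cells had a median of 305492 reads and of 9398.5 detected genes. Lgr5 itself had a read in 96.9% of them, and 1525 cells had the ISC marker list as their highest list.

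Crypts of the small intestine are renewed by dividing Lgr5+ ISCs at their base. A reserve pool that divides seldom has been placed above them, with Bmi1, Hopx and Tert among its markers. Mex3a is used to mark slowly dividing crypt cells. Tert is the catalytic subunit of telomerase, which adds telomeric repeats to chromosome ends, and Dkc1 encodes dyskerin, which binds and holds the telomerase RNA. Terf1, Terf2 and Pot1a encode shelterin proteins, which cover telomeric DNA. Bmi1 is a subunit of Polycomb repressive complex 1, Hopx a homeodomain protein without DNA binding of its own, and Mex3a an RNA-binding protein.

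On the GRCm38 build, Tert lies on the plus strand at chr13:73626911-73649843, Bmi1 on the plus strand at chr2:18677018-18686629, Hopx on the minus strand at chr5:77086988-77115121 and Mex3a on the plus strand at chr3:88532395-88541396. Terf1 lies on the plus strand at chr1:15805646-15844052, Terf2 on the minus strand at chr8:107069400-107096547, Pot1a on the minus strand at chr6:25743737-25809246 and Dkc1 on the plus strand at chrX:75095854-75109777. The sources used here do not say whether counting used strand. This touches Hopx, as 27.2% of its exon bases are shared with the antisense gene Hopxos, and reads of both cannot be told apart without strand. Of the runs of 50 bases in Bmi1, 16.6% also occur in Gm5946, a gene with 18 reads in all kept cells.

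Dkc1 was the most abundant of the 8 genes and Mex3a the least. Levels between genes were compared as CPM per kilobase of exon, where CPM are the reads of a gene in the kept cells of a mouse per 1000000 reads of these cells. Over the 7 mice, Dkc1 had 43.8 ± 6.21 (SD, n = 7) CPM per kilobase and Hopx 18.4 ± 3.79. Terf1 followed with 9.24 ± 1.70, and Terf2, Tert and Pot1a lay close together at 4.15 ± 0.982, 3.90 ± 1.08 and 3.67 ± 0.526. Bmi1 had 1.94 ± 0.364 and Mex3a 0.717 ± 0.384 CPM per kilobase. Neighbours in this order differed in the same direction in 7 of 7 mice in 5 of the 7 pairs (two-sided exact sign-flip permutation test, p = 0.0156, the smallest that 7 mice allow, adjusted p = 0.0219). Terf2 and Tert (p = 0.672 in the same exact test, adjusted p = 0.784) and Tert and Pot1a (exact p = 0.875) did not differ beyond their spread.

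Most cells held few reads of the reserve cell genes. A read of Tert was found in 1113 cells (60.6%), of Bmi1 in 659 (35.9%), of Hopx in 1594 (86.8%) and of Mex3a in 532 (29.0%). Among the telomere genes, Terf1 had a read in 75.3% of cells, Terf2 in 66.0%, Pot1a in 70.9% and Dkc1 in 94.8%. Of 10 genes of other organs that these cells should lack, Gfap had the highest share of cells with a read, at 2.07%. Cells with a read of Tert held a median of 7 reads, those with Bmi1 4, those with Hopx 8 and those with Mex3a 3. With at least 10 reads, Tert was found in 25.6% of cells, Bmi1 in 8.55% and Mex3a in 2.89%. Hopx reached 10 reads in more cells, a mean over mice of 38.6% in young and 33.3% in aged mice. The 10% of cells with the highest level held 45.1% of the summed level of Tert, 65.3% of that of Bmi1, 33.1% of that of Hopx and 71.3% of that of Mex3a. The level of Mex3a and Bmi1 thus rested on few cells, and that of Hopx was spread over more of them. The reads carry no molecular identifiers, so copies made in amplification cannot be told from separate molecules. Such shares thus hold more than counting error.

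Few cells had reads of all 4 reserve cell genes, 8.22% of the kept cells before thinning. The share expected for 4 genes read independently of each other was not computed. After each cell was thinned to 100000 reads, which 1732 cells allowed, 7.91% of cells had a read of none of Tert, Bmi1, Hopx and Mex3a, 29.4% of 1 gene, 39.9% of 2, 19.9% of 3 and 2.89% of all 4. Hopx was read in 81.3% ± 6.32 of the cells with a Bmi1 read and in 74.6% ± 6.76 of those without (SD, n = 7), higher with Bmi1 in 7 of 7 mice. For Tert and Bmi1, the shares were 57.3% ± 9.90 and 51.9% ± 4.59, higher with Bmi1 in 5 of 7 mice. Cells of 1 mouse are not independent and differ in detected genes, and cells with a read of any of the 4 genes also held more detected genes in 7 of 7 mice, for Tert 8275 ± 299 against 7677 ± 395.

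The first comparison asked whether the genes differ with age. None of the 8 genes passed the test, while Tert and Mex3a had the lowest values in aged mice relative to young. Tert had 32.4, 27.2 and 22.9 CPM in young mice 1 to 3 and 23.7, 18.9, 15.4 and 15.9 CPM in aged mice 1 to 4. The ages overlapped at young mouse 3 and aged mouse 1 only, with means of 27.5 ± 4.75 (SD, n = 3) and 18.4 ± 3.81 (SD, n = 4). Mex3a had 8.80, 4.64 and 4.09 CPM in young and 2.00, 2.86, 3.34 and 3.28 CPM in aged mice. All aged mice lay below all young mice for Mex3a, and it was the only one of the 8 genes without overlap, where 5.92% of all 20957 genes tested did not overlap and 4.09% had all aged mice below the young.

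A single cell held 46.9% of the Mex3a reads of young mouse 1. When the cell with most reads was left out in each mouse, Mex3a had 4.84, 4.42 and 3.52 CPM in young and 1.79, 2.62, 3.00 and 3.16 CPM in aged mice. The ages still did not overlap.

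Bmi1 had 7.28, 10.4 and 7.78 CPM in young and 6.16, 6.59, 8.75 and 7.02 CPM in aged mice. Hopx had 23.1, 33.1 and 37.5 CPM in young and 22.1, 27.8, 23.2 and 28.4 CPM in aged mice. Both overlapped between the ages, and young mouse 1 had the lowest young value of each. Terf1 ranged from 33.0 to 51.2 CPM in young and from 35.6 to 52.0 CPM in aged mice, and Terf2 from 13.9 to 24.9 and from 16.4 to 24.8 CPM. Pot1a ranged from 23.5 to 35.1 and from 28.8 to 36.7 CPM, and Dkc1 from 152 to 216 and from 157 to 214 CPM. The ages overlapped for these 4 telomere genes.

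With edgeR's quasi-likelihood test on reads summed per mouse, with Benjamini-Hochberg adjustment over 20957 genes, 0 genes passed an adjusted p of 0.05 (0%), while 1098 reached 0.05 before adjustment. With DESeq2, 177 genes were called and with limma voom 2, none of them among the 8. In edgeR's quasi-likelihood test, Tert had a log2 fold change, aged over young, of -0.53 (SE 0.21, Benjamini-Hochberg adjusted p = 0.888) and Mex3a of -0.97 (SE 0.36, adjusted p = 0.840). Hopx had -0.24 (SE 0.20) and Bmi1 -0.19 (SE 0.24), and the 4 telomere genes lay between -0.02 and 0.20. In cells thinned to 100000 reads, the value of Mex3a was -0.43. With 1 mouse left out it ran from -1.17 to -0.52, the latter without young mouse 1.

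Since sums were made over all sorted cells, fewer cells of a type and less RNA per cell cannot be told apart. Cells led by the ISC markers made up 86.3 to 92.4% of the kept cells of young mice and 71.0 to 88.9% of those of aged mice, and cells led by the Paneth markers 2.13 to 7.50% and 6.88 to 16.1%. The summed level of the 9 Paneth markers overlapped between the ages (7002 to 23706 CPM in young, 10532 to 25544 CPM in aged mice, 0 of 9 markers higher in all aged mice), and that of the 12 enterocyte markers did not (1042 to 1514 and 1623 to 2757 CPM, 1 of 12 higher in all aged mice). Of the 20 ISC markers, 5 were lower in all aged mice (summed level 18988 to 23701 CPM in young and 15087 to 25050 CPM in aged mice), and of the 8 enteroendocrine markers, 3 were higher in all aged mice (25.4 to 100.3 and 93.6 to 413 CPM). The part of these markers in the values of Tert and Mex3a was not tested. No marker of these lists was without reads. Within cells led by the ISC markers, the values were -0.53 for Tert and -0.92 for Mex3a. The mice were also spread over 5 sequencing lanes, 3 of which held both ages. Within these lanes, Tert had a log2 ratio of aged over young of -0.38, -1.08 and -0.35, and Mex3a of -1.16, -1.40 and -0.74. The first and the last of these lanes share young mouse 2, so the 3 ratios rest on 2 young mice and are not separate comparisons. With the lane as a block, the log2 fold changes were -0.54 for Tert and -1.04 for Mex3a (adjusted p = 0.639 and 0.559, edgeR's quasi-likelihood test).

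The share of cells with a Tert read was 64.4, 68.9 and 62.8% in young mice 1 to 3 and 56.6, 54.3, 58.2 and 54.9% in aged mice 1 to 4. All aged mice lay below all young mice, by 9.34 percentage points in the mean (65.4% ± 3.19 and 56.0% ± 1.76). This gave p = 0.0286 in a two-sided exact permutation test, the smallest that 3 against 4 mice allow, and 0.114 after Benjamini-Hochberg adjustment over the 4 genes. In thinned cells the difference was -7.59 points (exact p = 0.114), and in cells led by the ISC markers -6.08 points (exact p = 0.0286, adjusted p = 0.114). The ages overlapped once cells were thinned, with 59.6, 61.4 and 52.4% in young and 55.4, 44.1, 52.3 and 49.0% in aged mice. Over all 1920 cells, with no minimum of detected genes, it was -6.27 points (exact p = 0.143). The share of cells with a read of Bmi1 differed by 0.369 points (exact p = 0.971), of Hopx by -3.07 points (exact p = 0.514) and of Mex3a by -2.81 points (exact p = 0.514).

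The second comparison set the genes against the cell cycle. Each cell was given a score, the mean log2(CPM + 1) over 20 S-phase and 20 G2/M genes, and the cells of each mouse were cut by this score into 3 parts of equal size, the low, the middle and the high part. Such a part is a range of the score and not a cell type, and 3.54% and 2.89% of the cells lay within 0.1 of the cut below and the cut above the middle part. Terf1, Dkc1 and Terf2 were higher in the high part, no member was lower, and Tert, Bmi1, Hopx, Mex3a and Pot1a did not pass the test. Among all 16614 genes tested, with the score's own genes left out, 3172 (19.1%) passed an adjusted p of 0.05, of which 1791 (10.8%) were higher in the high part and 1381 (8.31%) lower, and the 8 members were all tested. Mki67, a marker of dividing cells that is itself in the score, had means of 79.0 CPM in the low and 2658 CPM in the high part.

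Terf1, which binds double-stranded telomeric repeats, rose most of the 8 genes. It had 26.3, 24.4 and 22.8 CPM in the low part of young mice 1 to 3 and 69.8, 87.2 and 58.5 CPM in the high part. In aged mice 1 to 4 it had 15.1, 19.4, 32.2 and 16.7 CPM in the low and 56.0, 65.2, 63.9 and 62.0 CPM in the high part. The lowest high part thus lay above the highest low part over the 7 mice, and a read of Terf1 was found in 54.7% ± 8.11 of the cells of the low and 94.8% ± 3.99 of those of the high part (SD, n = 7). The log2 fold change was 1.48 (SE 0.14, Benjamini-Hochberg adjusted p = 9.77e-05 in edgeR's quasi-likelihood test with the mouse as a block). With parts cut by the G2/M genes alone it was 1.71 (adjusted p = 4.46e-05), and with parts cut by the S-phase genes alone it was 0.32 and no longer passed (adjusted p = 0.220, same test).

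Dkc1 had 114, 177 and 133 CPM in the low and 185, 248 and 207 CPM in the high part of young mice. In aged mice it had 183, 134, 137 and 138 CPM in the low and 234, 189, 219 and 204 CPM in the high part. It was higher in the high part in 7 of 7 mice, and aged mouse 1 and young mouse 2 had the highest values of both. The log2 fold change was 0.45 (SE 0.07, Benjamini-Hochberg adjusted p = 0.00246 in edgeR's quasi-likelihood test), and 0.47 and 0.40 with parts cut by the S-phase and by the G2/M genes alone (adjusted p = 0.0437 and 0.00445). Terf2, which protects chromosome ends from being joined, had 8.41, 20.5 and 11.5 CPM in the low and 18.9, 29.4 and 16.1 CPM in the high part of young mice, and 12.4, 17.1, 21.9 and 12.2 against 21.1, 35.8, 25.1 and 20.1 CPM in aged mice. It was also higher in 7 of 7 mice, least in aged mouse 3. Its log2 fold change was 0.59 (SE 0.16, Benjamini-Hochberg adjusted p = 0.0257 in edgeR's quasi-likelihood test), which passed without aged mouse 3 (0.71, adjusted p = 0.00973) and missed the threshold when any other mouse was left out, with adjusted p from 0.0508 to 0.0773. It also missed it with no mouse block (0.56, adjusted p = 0.129) and with parts cut by the S-phase genes alone (0.46, adjusted p = 0.164).

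The promoters of Dkc1 and Terf2 are shown since both genes rose with the cycle score. Terf1, which rose most, had no promoter entry in the source used and is not shown. The windows are the 250 bases before the start, from RefSeq on GRCm38.p6. They lie at chrX:75095604-75095853 on the plus strand and at chr8:107096546-107096795 on the minus strand. Capitals mark matches to TTTGAA or TTCAAA, the letters of the cell cycle homology region, and to CCAAT or ATTGG, the letters of the CCAAT box. CACGTG, the E-box, and CTTTGAT or ATCAAAG, the letters bound by TCF/LEF factors, were searched as well.
Dkc1: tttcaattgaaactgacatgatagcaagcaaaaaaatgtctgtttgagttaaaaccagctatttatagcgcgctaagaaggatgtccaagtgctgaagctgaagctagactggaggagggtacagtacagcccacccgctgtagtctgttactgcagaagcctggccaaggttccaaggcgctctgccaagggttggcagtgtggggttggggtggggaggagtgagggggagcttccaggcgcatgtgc
Terf2: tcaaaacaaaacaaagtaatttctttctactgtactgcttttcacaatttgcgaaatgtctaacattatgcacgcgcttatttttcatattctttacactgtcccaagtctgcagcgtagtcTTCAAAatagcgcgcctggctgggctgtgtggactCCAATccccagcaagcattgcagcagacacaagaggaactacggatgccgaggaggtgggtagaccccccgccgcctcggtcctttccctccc
The Terf2 window held 1 match of the cell cycle homology region, which starts 128 bases before the start, and 1 CCAAT box, which starts 93 bases before it. The Dkc1 window held no match of the 4 motifs. Among the members that did not pass by cycle score, Hopx held a CCAAT box in each of its windows and an E-box. Bmi1 held an E-box, and the windows of Tert, Mex3a and Pot1a held no match. Whether these matches bear on the levels was not tested. Of the 32851 promoter windows of this length, 16.0% held the letters of the cell cycle homology region, 33.8% those of the CCAAT box, 6.02% those of the E-box and 3.21% those of TCF/LEF.

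Tert had 46.1, 27.1 and 22.9 CPM in the low and 28.2, 25.4 and 20.6 CPM in the high part of young mice. In aged mice it had 22.8, 24.1, 15.5 and 15.7 CPM in the low and 18.7, 17.0, 17.2 and 16.1 CPM in the high part. It was lower in the high part in 5 of 7 mice, most in young mouse 1, and the parts overlapped. The log2 fold change was -0.33 (SE 0.13, Benjamini-Hochberg adjusted p = 0.113 in edgeR's quasi-likelihood test, 0.0502 in DESeq2). A larger share of the cells of the high part had a Tert read (67.7% ± 4.47 against 52.7% ± 8.74, SD, n = 7), so the level and the share of cells went opposite ways. This was not particular to Tert, as the mean share rose for all 8 genes. For Mex3a it went from 25.2 to 31.6% while the mean level went from 4.25 to 3.24 CPM. The high part also held more detected genes, and these shares are from unthinned cells.

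Bmi1 had 2.09, 8.50 and 5.34 CPM in the low and 9.01, 12.8 and 12.1 CPM in the high part of young mice. In aged mice it had 4.27, 3.77, 9.34 and 5.66 CPM in the low and 7.36, 7.37, 6.54 and 7.59 CPM in the high part. It was higher in the high part in 6 of 7 mice and lower in aged mouse 3. The log2 fold change was 0.67 (SE 0.30, adjusted p = 0.151, edgeR's quasi-likelihood test), and 0.91 (adjusted p = 0.0417, same test) without aged mouse 3. Hopx stayed between 18.9 and 38.3 CPM in the low and 24.1 and 35.5 CPM in the high part, with a log2 fold change of -0.04 (SE 0.11). Mex3a ranged from 1.50 to 8.47 CPM in the low and from 1.79 to 5.54 CPM in the high part, with -0.41 (SE 0.36), and Pot1a from 15.9 to 47.4 and from 23.9 to 40.9 CPM, with 0.17 (SE 0.17). The parts overlapped for all of these, and the standard errors of Mex3a and Bmi1 were the widest of the 8 genes.

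When cells were cut into 5 equal parts by the cycle score, Terf1 went from 16.0 CPM in the lowest to 66.5 CPM in the highest part (means over 7 mice), Bmi1 from 5.59 to 10.4 CPM and Tert from 25.8 to 17.9 CPM. Hopx stayed between 27.2 and 29.0 CPM in all 5 parts.

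**Figure D1:**
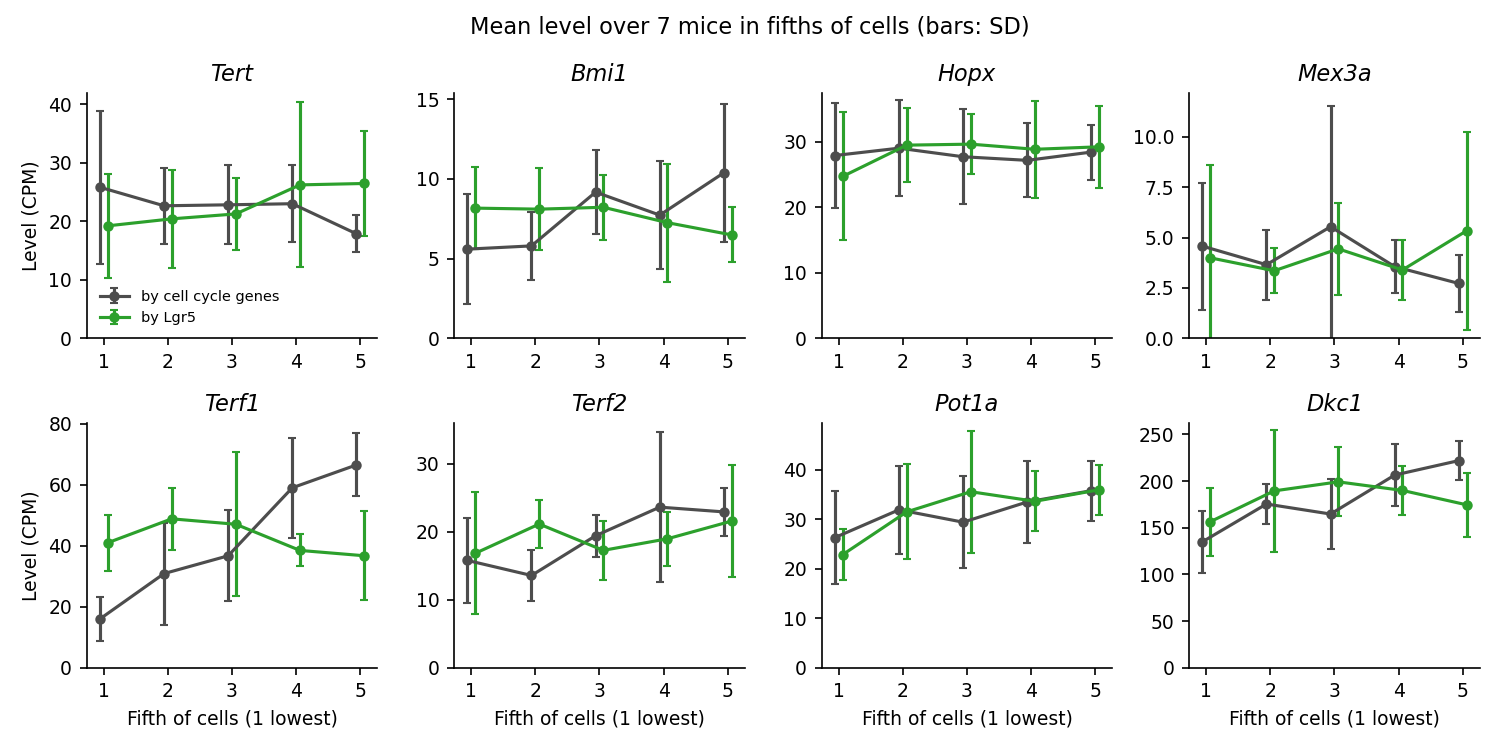
Mean level of the 8 genes over 7 mice, in CPM with SD, in 5 equal parts of the cells of each mouse by cell cycle score, from the lowest to the highest. Terf1 goes from 16.0 to 66.5 CPM and Hopx stays between 27.2 and 29.0 CPM.

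Cell composition and depth moved with the score. Cells led by the ISC markers were 78.7% ± 15.6 of the low and 90.9% ± 4.14 of the high part, and the median of detected genes was 8291 ± 569 and 9947 ± 304 (SD, n = 7). The summed Paneth markers ranged from 3318 to 60433 CPM over the low parts and from 492 to 11325 CPM over the high parts, with 0 of 9 markers lower in all mice. Of the 12 enterocyte markers, 3 were lower in the high part in all mice (summed level 1239 to 4510 CPM over the low and 801 to 1449 CPM over the high parts), and of the 20 ISC markers, 6 were lower and 1 was higher in all mice. Within cells led by the ISC markers, the log2 fold changes were 1.50 for Terf1, 0.39 for Dkc1 and 0.52 for Terf2, and all passed (adjusted p = 0.000470, 0.0106 and 0.0445, edgeR's quasi-likelihood test). In thinned cells they were 1.65, 0.36 and 0.50 and passed as well. Plain CPM ratios lay above the fitted fold changes by 0.12 (log2) in the median of all genes for the cycle parts and by 0.22 for the Lgr5 parts. With plain CPM, Dkc1, Terf2 and Hopx by Lgr5 and Hopx by cycle score had the opposite sign to the fit.

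The next comparison set the genes against Lgr5, with parts cut in each mouse by log2(CPM + 1) of Lgr5. Of the 8 members, 0 passed an adjusted p of 0.05 in edgeR's quasi-likelihood test, where 2105 of 17198 genes did (12.2%, of which 789 or 4.59% were higher and 1316 or 7.65% lower in the high part). Terf1 and Bmi1 had an unadjusted p under 0.05, and DESeq2 called Terf1 alone. Tert had 24.4, 23.0 and 26.1 CPM in the low and 54.5, 28.1 and 19.4 CPM in the high part of young mice, and 25.2, 9.82, 7.05 and 14.3 against 25.8, 24.2, 22.7 and 19.7 CPM in aged mice. It was higher in the high part in 6 of 7 mice and lower in young mouse 3, and the parts overlapped (log2 fold change 0.41, SE 0.23, Benjamini-Hochberg adjusted p = 0.254 in edgeR's quasi-likelihood test). Bmi1 had -0.60 (SE 0.24, adjusted p = 0.133 in edgeR's quasi-likelihood test), Mex3a 0.22 (SE 0.29) and Hopx -0.05 (SE 0.16).

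Terf1 had a log2 fold change by Lgr5 of -0.43 (SE 0.14, adjusted p = 0.0727, edgeR's quasi-likelihood test). It passed in DESeq2 (adjusted p = 0.0237), in thinned cells (-0.42, adjusted p = 0.0216, edgeR), within cells led by the ISC markers (-0.58, adjusted p = 0.00935) and without aged mouse 2 (-0.55, adjusted p = 0.0244). Pot1a had 0.19 (SE 0.19), and 0.37 in thinned cells, where it passed (adjusted p = 0.0227, edgeR's quasi-likelihood test). Dkc1 had -0.11 (SE 0.12) and Terf2 -0.05 (SE 0.15). Cells led by the ISC markers made up 62.2% ± 15.0 of the low and 96.5% ± 3.32 of the high part (SD, n = 7). Lgr5 is itself on the ISC marker list, so this difference is in part set by the cut. Of the 20 ISC markers, Lgr5 among them, 16 were higher and 0 lower in all mice. The summed Paneth markers ranged from 18284 to 67584 and from 770 to 16170 CPM, with 5 of 9 markers lower in all mice. Within cells led by the ISC markers, Tert had 0.29 and Mex3a 0.09.

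Whether these relations differ between the ages was tested as an interaction. For the cycle parts, 0 of 16614 genes passed (0%) in edgeR's quasi-likelihood test, with 568 at an unadjusted p under 0.05 and 9 called by DESeq2. For the Lgr5 parts, 1 of 17198 did (0.00581%). None of the 8 members passed in either, and their values, aged minus young, ran from -0.97 (Bmi1, SE 0.55) to 0.28 (Mex3a, SE 0.77) for the cycle and from -0.24 (Pot1a, SE 0.39) to 0.81 (Mex3a, SE 0.57) for Lgr5.

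The relations were also read from the other side, by comparing cells with and cells without a read of Tert, Bmi1, Hopx or Mex3a within each mouse, in thinned cells. Of 12 such differences, 6 passed a two-sided exact sign-flip permutation test over 7 mice after Benjamini-Hochberg adjustment over the 12. The same differences were computed for 12110 genes as a background, of which 61.3% had a higher S-phase score in the cells with a read in all 7 mice, 51.3% a higher G2/M score and 23.1% a higher Lgr5 level. The S-phase score (log2 scale) was higher in cells with a Tert read by 0.45 ± 0.25 (SD, 7 of 7 mice, exact p = 0.0156, adjusted p = 0.0312), and 58.9% of all genes had a larger difference. Bmi1 had 0.59 ± 0.32 and Hopx 0.45 ± 0.13 (each 7 of 7 mice, same exact p), with 46.9 and 59.3% of genes above. These values lie near the median of all genes, 0.55.

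For the G2/M score, cells with a Bmi1 read were higher by 0.80 ± 0.52 and cells with a Hopx read by 0.66 ± 0.44 (each 7 of 7 mice, exact p = 0.0156, adjusted p = 0.0312), beside a median of all genes of 0.70. Tert had 0.13 ± 0.30 and was higher in 5 of 7 mice (exact p = 0.312, adjusted p = 0.417), and 82.1% of genes had a larger difference. With at least 5 reads in place of 1, the G2/M difference of Tert was -0.88, with cells above in 1 of 7 mice (exact p = 0.0469, adjusted p = 0.141). Mex3a had the lowest S-phase difference of the 4 genes, -0.13 ± 0.52, with values of -1.26 in young mouse 1 and between -0.16 and 0.26 in the other 6 mice, and 96.5% of genes lay above it.

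The Lgr5 level was higher in cells with a Mex3a read by 0.59 ± 0.41 in 7 of 7 mice (exact p = 0.0156, adjusted p = 0.0312), where 20.3% of genes had a larger difference. Within cells led by the ISC markers it was 0.43 ± 0.38, in 6 of 7 mice (exact p = 0.0312, adjusted p = 0.0750). Tert had 0.33 ± 0.33 (6 of 7 mice, exact p = 0.0312, adjusted p = 0.0536), Hopx 0.41 ± 0.47 (6 of 7 mice, adjusted p = 0.0703) and Bmi1 0.01 ± 0.36 (3 of 7 mice) in the same exact test. With 1 mouse fewer, the smallest p of the test no longer passes the adjustment.

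Over the 1732 thinned cells, correlations within mice were weak for the 4 reserve cell genes. The mean Pearson r over 7 mice of Tert was 0.105 with the S-phase score, -0.0222 with the G2/M score and 0.0853 with Lgr5. Mex3a had 0.103 with Lgr5, and Bmi1 0.126 with the S-phase score. Higher values were found for the telomere genes. Terf1 had 0.507 with the G2/M score (0.406 to 0.593 over mice) and 0.249 with the S-phase score, Dkc1 0.351 with the S-phase score, Pot1a 0.249 with it and Terf2 0.200 with the G2/M score. The points are cells of 1 mouse, thinned to the same depth and sequenced in 1 or 2 lanes, and in sparse counts weak correlations are no finding.

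The other genes of telomerase and of the telomere cap were read from lists of genes. Of 14 genes of telomerase and its assembly, 13 were tested by cycle score, with a median log2 fold change of 0.19 beside -0.02 over all genes tested. Of these 13, 4 were higher and 0 lower in the high part, beside 10.8% and 8.31% of all genes tested. The 4 were Dkc1, Nhp2 (0.51), a protein of the same particle as dyskerin, Ruvbl2 (0.67), an ATPase of its assembly, and Wrap53 (0.98), which brings telomerase to Cajal bodies. Of 15 genes of shelterin and telomere capping, 7 were higher and 0 lower, beside the same 10.8% and 8.31% of all genes, with a median of 0.25. Beside Terf1 and Terf2 these were Tinf2 (0.68), which links the shelterin subunits, Ctc1 (1.04) and Stn1 (0.86), which bind single-stranded telomeric DNA, Rtel1 (1.17), a helicase, and Rif1 (0.68), which acts in replication timing. By Lgr5, 1 gene of the telomerase list was higher, Parn (0.82), which trims RNA ends, and 3 were lower, Nhp2 (-0.82), Nop10 (-0.64) and Ruvbl2 (-0.45), with a median of -0.21 beside 0.02 over all genes. Over all genes tested by Lgr5, 4.59% were higher and 7.65% lower. Of the capping list, Tnks2 (0.34) was higher and no gene was lower by Lgr5. Terc, the telomerase RNA, had a read in 3 cells. The cDNA was made with a polyT primer, and how well this catches Terc was not tested. The few reads thus do not show that the cells lack it. With age, 0 genes of these lists passed in edgeR's quasi-likelihood test.

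Of 19 genes of Polycomb repressive complex 1 and its target Cdkn2a, 18 were tested, and by cycle score Cbx2 (0.61), a chromodomain subunit, was higher and Phc3 (-0.65) lower in the high part. Over all genes tested, 10.8% were higher and 8.31% lower, so these calls do not set the list apart. None of this list passed by Lgr5, and Cdkn2a had 0 reads in the kept cells. Of the 4 genes of the Mex3 family, 0 passed in any of the 3 comparisons in edgeR's quasi-likelihood test.

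The levels also differed by the marker list that led a cell. Tert had a median over mice of 23.8 CPM in cells led by the ISC markers and 7.91 CPM in those led by the Paneth markers, higher in the former in 7 of 7 mice. Bmi1 (7.58 and 2.96 CPM), Mex3a (3.57 and 2.03 CPM), Pot1a (35.0 and 12.2 CPM) and Dkc1 (190.5 and 70.5 CPM) were also higher in 7 of 7 mice. Hopx (27.5 and 15.8 CPM) and Terf1 (47.3 and 22.1 CPM) were higher in 6 of 7 mice, and Terf2 (17.0 and 11.2 CPM) in 5 of 7. Against cells led by the goblet markers, compared in 5 mice, Bmi1, Hopx and Terf2 were higher in the ISC-led cells in 2 of 5 mice. Terf1 was higher in 3 of 5, Tert and Mex3a in 4 of 5, and Pot1a and Dkc1 in 5 of 5. Against cells led by the enterocyte markers, Bmi1 was higher in the ISC-led cells in 3 of 5 mice. Mex3a was higher in 5 of 5 and the other members in 4 of 5. Such cells passed the same sort for Lgr5high cells, and doublets were not called. The levels are a description, since the marker lists also chose the cells. How many of all genes were higher in the ISC-led cells is not given here, so the counts show no trait particular to the 8 genes.

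The genes whose level went most with that of a member over thinned cells, by mean r within mice over 13204 genes, differed between the members. For Tert the highest was Pigr (0.188), which carries antibodies through the epithelium, and Lgr5 stood at rank 3217. For Bmi1 it was Uhrf1 (0.153), a gene of the S-phase list, and for Mex3a Zfp608 (0.123), with Lgr5 at rank 18 (0.103). For Hopx it was the overlapping Hopxos (0.457), followed by Npm1 (0.235), a nucleolar protein, and ribosomal protein genes.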

How the data were processed

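Lgr5high cells of 7 mice were sequenced singly by a Smart-seq2 type method with single-end reads and no molecular identifiers. Per the labels, the authors aligned reads to GRCm38 with HISAT2 and counted them with HTSeq; the sources used here name neither strand setting nor annotation. The deposited values are raw read counts per gene and cell, with no normalization. GENCODE M21 gave symbols and positions for 55144 of 55471 gene identifiers; the other 327 were kept without a symbol.

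A minimum of 1000 detected genes left 1836 of 1920 cells, and doublets were not called. Counts were summed per mouse, or per mouse and part of its cells, and the mouse was the replicate. Sequencing used 5 lanes. edgeR 4.0.16 (TMM, filterByExpr, quasi-likelihood test, Benjamini-Hochberg, threshold 0.05) was the main tool in R 4.3.3, with DESeq2 1.42.0, limma 3.58.1, other filters, thinning to 100000 reads and each mouse left out as alternatives. Thinning left out 104 kept cells (36 young, 68 aged). Shares and differences per mouse were tested by exact permutation over 35 divisions of the mice or 128 sign flips. The SE given with an edgeR value is the absolute log2 fold change divided by the square root of the F statistic of its test. The fits were tested on simulated data first. A summed mouse held 49447464 to 134408884 reads.

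The members, the gene lists and the named genes (the members, Lgr5, Mki67, the listed genes and the 5 genes most like each of the 4 reserve cell genes) were chosen with earlier results of these data known. The lists also hold other reserve cell markers and cell cycle inhibitors.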

Additional observations from a re-analysis of the deposited data

Results flagged for a closer look

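Of 44 sets of values, over the 4 aged mice or over all 7 mice, that were examined for a value far from the others, 4 held one, and chance alone gives about 1 in 20. For Pot1a, the log2 ratio of the high over the low part by cycle score was 1.36 in aged mouse 3 and lay far above that of the other mice. For Terf1, the log2 ratio by Lgr5 was 0.67 in aged mouse 2, which was the only mouse above 0. For Mex3a, the S-phase score in cells with minus cells without a read was -1.26 in young mouse 1, the mouse in which 1 cell held 46.9% of the Mex3a reads, and their part in this value was not tested. For Mex3a, the Lgr5 level in cells with minus cells without a read was 1.40 in aged mouse 3, far above the other mice.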

How the results depend on the processing

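The number of genes that passed with age was 0 in edgeR's quasi-likelihood test and 177 with DESeq2, 2 with limma voom, 22 with no filter on low counts, 15 in thinned cells, 18 with each cell weighted equally, 1 with the sequencing lane as a block and 0 to 8 with 1 mouse left out (8 without aged mouse 1). The 8 members did not pass with age in any of these. With the mouse number as a replicate block, for mice 1 to 3 of each age, 0 genes passed; deviations of same-numbered mice correlated with r = -0.187, 0.320 and -0.361 over 10081 genes, so the numbers do not pair the mice. Between young and aged mice that shared a lane, r was 0.535 (young mouse 1 and aged mouse 3), 0.320 (young mouse 2 and aged mouse 2) and 0.167 (young mouse 2 and aged mouse 1), and between the others -0.361 to 0.380. By cycle score, DESeq2 called 2182 genes higher and 2235 lower, and thinned cells gave 2321 and 2389, where the main setting had more genes higher than lower. By Lgr5, 3775 genes passed with DESeq2, 1301 with no mouse block and 959 to 1677 with 1 mouse left out (959 without young mouse 3, 1383 without aged mouse 4). The interaction of age with cycle parts gave 9 genes with DESeq2. That with Lgr5 parts gave 9 with DESeq2, 0 in thinned cells and 0 to 1 with 1 mouse left out. Of the 12 differences between cells with and without a read, 0 passed with at least 5 reads, where Mex3a could not be computed. With any mouse left out 0 passed as well, where the smallest p of the test did not pass the adjustment. The cause of the other changes was not tested.

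Values that did not pass in the main setting changed sign as follows. With age (log2), Terf1 was 0.022 in ISC-led cells and 0.026 with the replicate block, Pot1a -0.060 thinned and -0.17 with cells weighted equally, and Dkc1 -0.019 thinned, -0.11 with cells weighted equally and -0.018 with the lane block. By cycle score with the G2/M genes alone, Hopx was 0.029 and Mex3a 0.20. By Lgr5, Hopx was 0.060 in ISC-led cells, Mex3a -0.11 with 2 parts in place of 3 and Dkc1 0.0023 thinned. The share of Bmi1 differed by -0.402 points thinned and -1.77 with at least 10 reads, and that of Hopx by 0.629 over all cells. Between cells with and without a read, Tert was -0.88 and Hopx -0.10 in G2/M score with at least 5 reads, Bmi1 -0.26 in Lgr5 with at least 5 reads and -0.055 in ISC-led cells, and Mex3a 0.17 in S-phase score in unthinned cells. With 1 mouse left out, the ranges that crossed 0 were -0.18 to 0.071 (Terf1), -0.047 to 0.21 (Pot1a) and -0.045 to 0.16 (Dkc1) with age, -0.072 to 0.0057 for Hopx by cycle score, -0.15 to 0.054 (Hopx) and -0.087 to 0.012 (Terf2) by Lgr5, -1.11 to 2.77 (Bmi1) and -4.68 to 0.527 points (Mex3a) for shares, and -0.066 to 0.10 (Bmi1, Lgr5) and -0.19 to 0.061 (Mex3a, S-phase) between cells with and without a read. Leaving out the top cell of each mouse was chosen after seeing the data and gave log2 values with age of -0.57 for Tert and -0.71 for Mex3a. With 3 against 4 mice, the standard errors with age ran from 0.17 (Dkc1) to 0.36 (Mex3a, with 3 reads in a median cell with a read) on the log2 scale, and the smallest difference that could be detected was not measured.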

Other observations

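Other genes are also used to mark reserve or slowly dividing crypt cells. Of 9 such genes, Sox9 (-0.72 on the log2 scale), a transcription factor of crypt cells, and Prox1 (-1.82) were lower and none was higher in the high part by cycle score, by edgeR's quasi-likelihood test, where 8.31% of all genes tested were lower and 10.8% higher. By Lgr5, Lrig1 (0.88), which restrains growth factor receptors and is also in the ISC marker list, and Msi1 (0.77) were higher, and Dclk1, also a tuft cell marker, was lower, with reads in 64 cells in all, beside 4.59% of all genes higher and 7.65% lower. Whether these differ from the 4 genes was not tested.

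Of 9 cell cycle inhibitors, 8 were tested by cycle score. Cdkn1b (0.39), Cdkn2c (2.40), Cdkn2d (4.10) and Rbl1 (1.86) were higher and Cdkn2b (-2.02) was lower in the high part in edgeR's quasi-likelihood test, beside 10.8% of all genes higher and 8.31% lower. By Lgr5, Cdkn1a (-1.85), the p53 target that arrests the cycle, and Cdkn2b, with reads in 155 cells in all, were lower and none was higher. Of the 20 G2/M genes, 8 were lower in the Lgr5-high part, beside 7.65% of all genes, and of the 20 S-phase genes 0 passed in either direction.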
